A study of Mus musculus with 6 samples.

Results

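The RAB GTPases are small GTP-binding proteins that mark the membranes of the secretory and endocytic pathways. Genes were taken as members where the deposited symbol was RAB followed by a number and at most 1 letter, which gave 59 of the 48321 gene names in the table. Expression values did not enter that rule, but members, role groups and regulator lists were chosen with earlier results of these data known. RNA was sequenced from isolated islets of wild-type (WT) C57BL6 mice on normal chow or on a high-fat diet. The high-fat diet supplied 60% of its calories as fat and was fed for 4 months from 3 months of age. How old the chow mice were, and how long they were fed, is not stated, and the treatment note of the chow samples also names the high-fat diet, so the diet label was used. The study's title concerns the effect of palmitic acid on AKT and mTOR, and the comparison asks which transcripts differ in islets after long feeding of fat.

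A RAB protein cycles between a GTP-bound form on a membrane and a GDP-bound form in the cytosol. Guanine nucleotide exchange factors (GEFs) load GTP, GTPase-activating proteins (GAPs, mostly with a TBC domain) end the active state, and effectors that bind the GTP form tether, move or fuse the vesicle. In the beta cell, RAB3 and RAB27 proteins sit on insulin granules and act in their docking and release, while other members act in granule formation at the Golgi and in the recycling of granule membrane.

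The table holds 3 columns per diet, but the values of chow replicate 2 are the average of chow replicates 1 and 3 in 48321 of 48321 names (relative tolerance 0.0001), so 2 chow and 3 high-fat libraries were compared. The labels do not say that these came from separate mice, and p-values then measure only the spread between these libraries, which may be technical. Steps in the low values imply 18.8 to 35.1 M reads per library, at which 3 reads correspond to 0.0856 to 0.159 CPM (read counts scaled to the size of the library, the unit of all levels below). No marker of the islet lists was at 0 throughout, and Ins1 was at 17487 and 23811 CPM on chow and at 30169, 32305 and 28993 CPM on high-fat diet. Of 10 beta cell markers 4 were called higher, with a list median of 0.47. The beta markers summed to 57623 and 80115 CPM on chow and to 87868, 95727 and 87653 CPM on high-fat diet, and the 5 alpha markers to 10665 and 2553 against 11553, 12766 and 13258 CPM, so both sums lay above the chow libraries. As shares of the summed CPM, both overlapped between the diets. Beta markers took 6.85% and 11.9% on chow and 9.12%, 11.5% and 9.97% on high-fat diet. Alpha markers took 1.27% and 0.379% on chow and 1.199%, 1.53% and 1.51% on high-fat diet. The part of beta and alpha cells in the RAB and regulator differences was not tested. The 24 acinar markers took 20.8% and 8.31% of the summed CPM on chow and 10.3%, 1.39% and 4.11% on high-fat diet, with ranges that overlap. The 7 fibroblast and stellate markers summed to 217 and 119 CPM on chow and to 36.2, 43.8 and 69.3 CPM on high-fat diet, and 5 of them were called lower. In such bulk samples fewer cells of a type and less RNA per cell cannot be told apart. Small structured RNAs took 0.00108% and 0.00237% of the summed CPM on chow and 2.36% to 3.25% on high-fat diet. The labels do not say whether the libraries of both diets were made alike. Sample titles begin with BS on chow and with RA on high-fat diet. A difference in how the libraries were made and diet therefore cannot be told apart for any gene below.

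The summed level of the RAB family overlapped between the diets, while single members moved in opposite directions. Summed over the 59 genes, RAB transcripts were at 2177 and 2206 CPM on chow and at 2178, 2177 and 2273 CPM on high-fat diet, with means of 2192 ± 20.1 (SD, n = 2) and 2209 ± 54.9 (SD, n = 3). Of the 55 members with a mean of at least 0.5 CPM, 7 were higher on high-fat diet and 7 were lower at an adjusted p below 0.05 (limma with Benjamini-Hochberg adjustment over 16939 genes), and 41 were not called. Among the lower calls, Rab17 passed the filter only through its chow level. The members called make up 25.5% of those tested, beside 23.7% of all genes. Higher calls were 12.7% of members against 14.9% of all genes, and lower calls 12.7% against 8.78%. The libraries of the 2 diets did not overlap for 33 of the 55 members (15 above and 18 below on high-fat diet), which is 60.0%, beside 55.4% of all genes. The members' median log2 difference was -0.04, beside 0.05 for all genes. These shares lie near the background and say nothing particular of the family.

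The split of the calls depended on the scaling. With library sizes counted without acinar and insulin genes, the median of all genes moved from 0.05 to -0.28. The calls became 1 higher and 24 lower among members, beside 4.79% and 28% of all genes. The columns themselves were unequal, summing to 841705 and 674482 CPM on chow and to 963615, 832416 and 879301 CPM on high-fat diet. That scaling also acts on these unequal sums, and this was not separated from the effect of leaving those genes out. With median-ratio scaling the members' calls were 6 higher and 10 lower, beside 12.5% and 11.1% of all genes. Of the 7 higher members, Rab35 alone kept its call without acinar and insulin genes (adjusted p = 0.00187), while the adjusted p of Rab3a, Rab3d, Rab8a, Rab11b, Rab23 and Rab31 lay between 0.408 and 0.962. All 7 lower members kept theirs under that scaling. Rab35 was called higher in 17 of 17 alternatives, and Rab3a was the only called member whose sign turned in any of them.

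**Figure D1:**
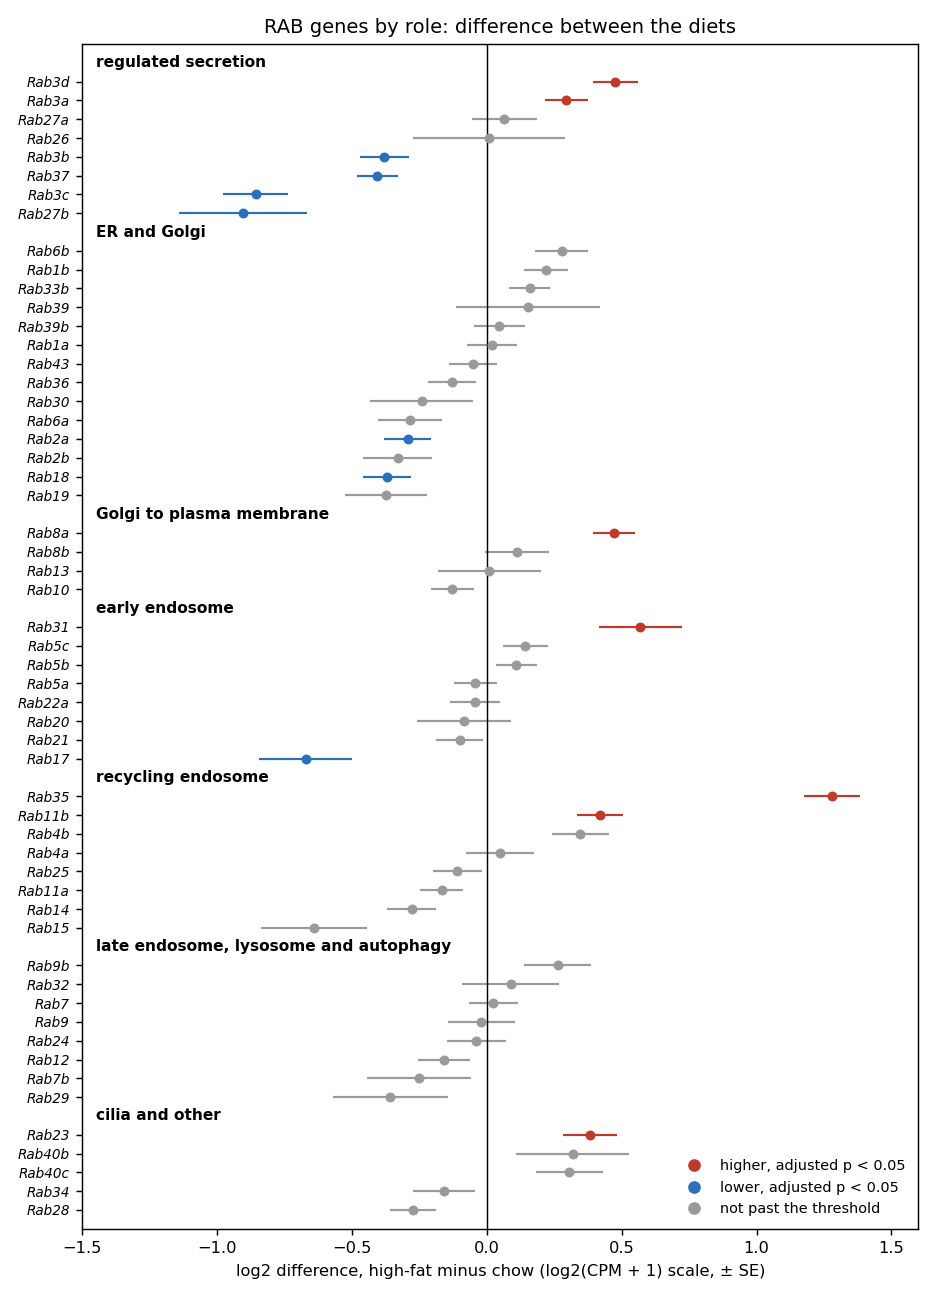
Log2 difference (high-fat minus chow, on the log2(CPM + 1) scale) of the 55 tested RAB genes, grouped by role. Points are limma estimates and bars are ± 1 SE. Rab35 lies farthest to the right at 1.28, and the secretion group holds called genes on both sides of 0.

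Per kilobase of transcript, the most abundant members were those of housekeeping traffic and of the granule. Rab7, which directs late endosomes to lysosomes, led both diets at 83.0 CPM per kb on chow and 84.4 on high-fat diet. Rab2a, a Golgi RAB that also acts in dense-core granule maturation, followed on chow at 65.2 CPM per kb and stood at 53.0 on high-fat diet. Rab1a, of transport from the endoplasmic reticulum (ER) to the Golgi, was at 58.1 and 58.8 CPM per kb. The granule members Rab37 (48.5 and 36.5 CPM per kb) and Rab27a (45.6 and 47.8) came next on chow. Rab3d moved from rank 10 on chow (27.1 CPM per kb) to rank 5 on high-fat diet (37.8), and Rab14 from rank 6 (34.8) to rank 11 (28.6). Without regard to length, 17 members had a mean of at least 50 CPM, 25 lay between 5 and 50 CPM, and 17 lay under 5 CPM.

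Among the RABs of regulated secretion, 6 of the 8 members were called (75%, beside 23.7% of all genes), the largest number in any role group. That number fell to 2 without high-fat replicate 1 or 2, to 3 without chow replicate 1 and to 4 without high-fat replicate 3. With a high-fat library left out, higher calls were 7.01% to 8.67% and lower calls 4.07% to 4.65% of all genes. Without chow replicate 1 they were 7.95% and 4.65%. The role groups were set with earlier results of these data known, so this share is no test of the group. Rab3d and Rab3a were higher on high-fat diet, Rab3b, Rab3c, Rab27b and Rab37 were lower, and the group median was -0.19. Rab3c, a vesicle RAB of neurons and endocrine cells, was at 15.0 and 15.7 CPM on chow and at 7.13, 8.49 and 8.53 CPM on high-fat diet. Every high-fat library lay below both chow libraries, and the level fell by 0.86 ± 0.12 on the log2 scale (adjusted p = 0.00422), a 1.91-fold difference in mean CPM. Rab3d, found on zymogen granules and other large secretory granules, was at 108 and 102 CPM on chow and at 151, 149 and 140 CPM on high-fat diet. Its libraries did not overlap, and it rose by 0.48 ± 0.08 (adjusted p = 0.00983), or 1.40-fold. Both calls held with any 1 of the 5 libraries left out.

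Rab37, a RAB of insulin and mast cell granules, was at 123 and 127 CPM on chow and at 93.1, 93.7 and 95.6 CPM on high-fat diet. The 3 high-fat values lay close together and below both chow values, a fall of 0.41 ± 0.08 (adjusted p = 0.0123), or 1.33-fold. The adjusted p was 0.0525 without high-fat replicate 1 and 0.0563 without high-fat replicate 2. Rab3b, another vesicle RAB of endocrine cells, was at 35.5 and 35.8 CPM on chow and at 26.9, 25.4 and 29.3 CPM on high-fat diet. It fell by 0.38 ± 0.09 (adjusted p = 0.0255), or 1.31-fold. Without chow replicate 1, chow replicate 3, high-fat replicate 1 or high-fat replicate 2 the adjusted p of Rab3b was 0.0718, 0.0526, 0.0778 or 0.0882.

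Rab3a, the main synaptic vesicle RAB, was at 42.2 and 46.2 CPM on chow and at 55.2, 53.4 and 54.4 CPM on high-fat diet. It rose by 0.29 ± 0.08 (adjusted p = 0.0375), or 1.23-fold, but stood at -0.09 (adjusted p = 0.62) with library sizes counted without acinar and insulin genes, where it still lay 0.18 above the median of all genes. Its adjusted p was 0.117 without chow replicate 1, and 0.11, 0.101 and 0.108 without high-fat replicates 1, 2 and 3. Rab27b, a granule RAB abundant in exocrine and haematopoietic cells, was at 8.51 and 4.43 CPM on chow and at 2.87, 2.74 and 2.89 CPM on high-fat diet. It fell by 0.91 ± 0.24 (adjusted p = 0.0345), with chow replicate 1 well above chow replicate 3. Without chow replicate 1, the library with the highest acinar share, the Rab27b difference was -0.50 (adjusted p = 0.126), and the adjusted p was 0.12 once an acinar score entered as covariate. It was also lost without high-fat replicate 1, 2 or 3, at 0.0822, 0.0955 and 0.0903. Acinar markers took 8.31% of the summed CPM in chow replicate 3 and 10.3% in high-fat replicate 1. Rab27b was at 4.43 and 2.87 CPM in these libraries. The part of acinar cells in the Rab27b difference was not tested.

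Rab27a, which docks insulin granules through its effector granuphilin, was at 135 and 154 CPM on chow and at 148, 136 and 170 CPM on high-fat diet. The diets overlapped and the difference was 0.06 ± 0.12 (adjusted p = 0.725). Rab26, a RAB of exocrine granules, was at 3.05 and 1.79 CPM on chow and at 3.47, 2.46 and 1.49 CPM on high-fat diet, also overlapping (0.01 ± 0.28, adjusted p = 0.988).

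**Figure D2:**
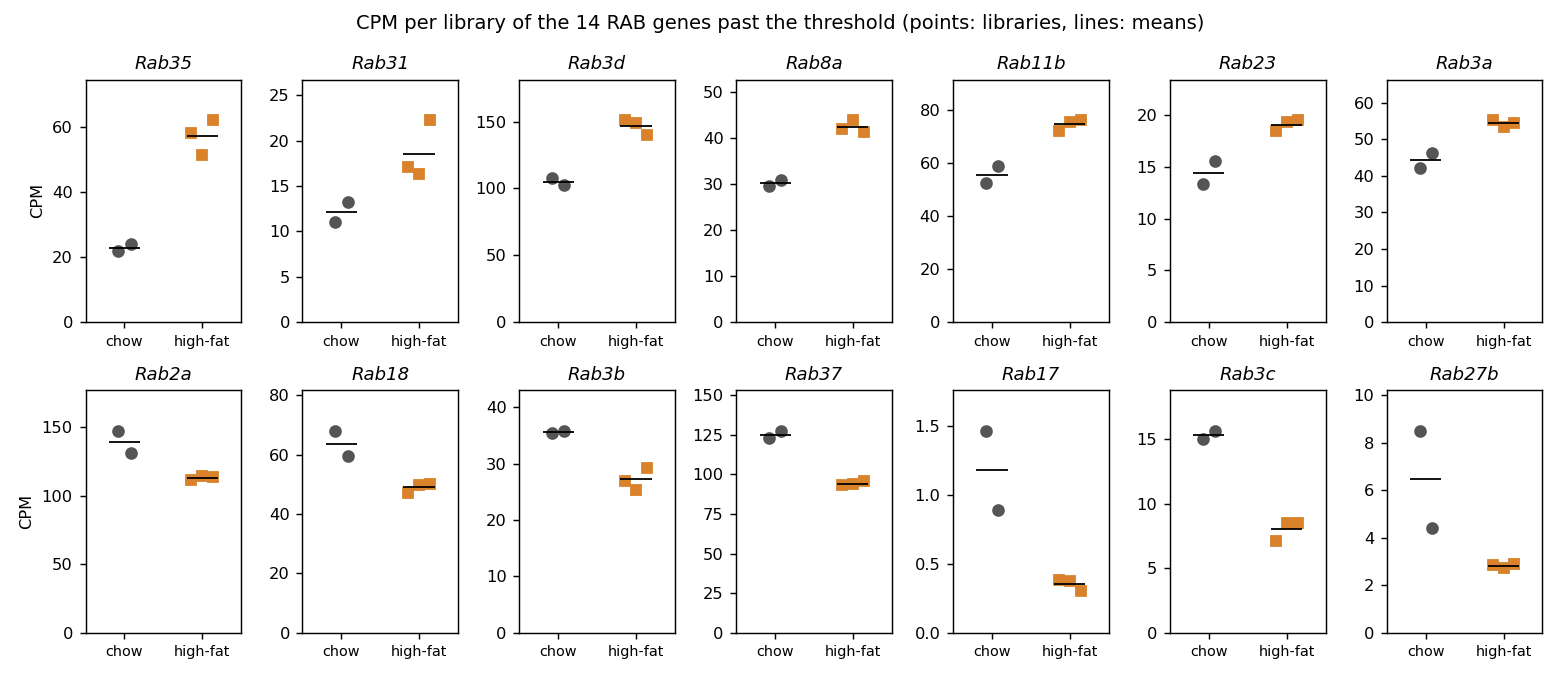
CPM in each library (points) and group means (lines) for the 14 RAB genes past the threshold, higher on high-fat diet in the top row and lower in the bottom row. In every panel the 2 chow and 3 high-fat libraries do not overlap, and the chow libraries of Rab27b and Rab17 lie far apart relative to their mean.

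The opposite movement within RAB3 changed the make-up of the subfamily. Summed RAB3 CPM was 201 and 200 on chow and 240, 236 and 232 on high-fat diet. Per kilobase, Rab3d took 41.3% and 38.3% of RAB3 on chow and 46.7%, 47.2% and 44.6% on high-fat diet. Rab3b went from 15.8% and 15.7% to 9.71%, 9.39% and 10.9%, and Rab3c from 2.64% and 2.70% to 1.01%, 1.24% and 1.25%. The share of Rab3a overlapped between the diets, at 40.3% and 43.3% on chow and 42.6%, 42.2% and 43.3% on high-fat diet. Shares within a library carry no scaling factor, and these were not tested.

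**Figure D3:**
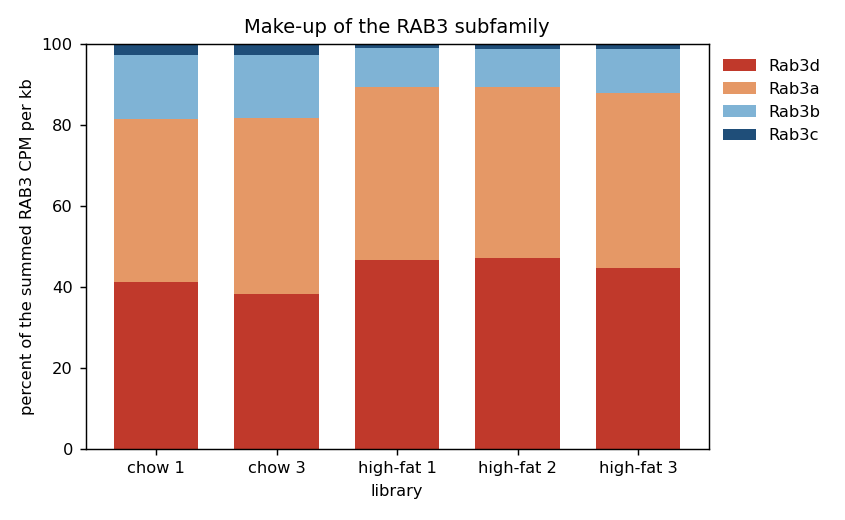
Stacked shares of Rab3d, Rab3a, Rab3b and Rab3c in the summed RAB3 CPM per kb of each library (percent). The Rab3b and Rab3c segments are smaller in all 3 high-fat libraries than in both chow libraries, and the Rab3d segment is larger.

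RefSeq promoter windows (GRCm38.p6, 250 bases before to 50 after the annotated start) were found for 48 of the 59 members, in 60 windows. The GC box GGGCGG, searched on both strands, stood in 41 of the 60 windows (68.3%) and in 35.7% of all 32851 windows. The CCAAT box stood in 26 member windows (43.3%, beside 37.4% of all), and the TATA box TATAAA in 4 (6.67%, beside 13.6%). The windows of 3 RAB3 genes that moved in opposite directions, and that of Rab35, the member with the largest log2(CPM + 1) difference, are printed 5′ to 3′ on the gene's strand, with capitals marking a match to the GC, CCAAT or TATA box on either strand.
Rab3d, minus strand, chr9:21918134-21918433: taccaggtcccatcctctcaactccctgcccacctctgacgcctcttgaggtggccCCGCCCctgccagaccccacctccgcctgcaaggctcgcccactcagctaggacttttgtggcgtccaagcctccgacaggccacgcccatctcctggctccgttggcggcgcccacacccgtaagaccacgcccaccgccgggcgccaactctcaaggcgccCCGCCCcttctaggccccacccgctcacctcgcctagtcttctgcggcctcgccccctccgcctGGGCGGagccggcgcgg
Rab3b, plus strand, chr4:108878820-108879119: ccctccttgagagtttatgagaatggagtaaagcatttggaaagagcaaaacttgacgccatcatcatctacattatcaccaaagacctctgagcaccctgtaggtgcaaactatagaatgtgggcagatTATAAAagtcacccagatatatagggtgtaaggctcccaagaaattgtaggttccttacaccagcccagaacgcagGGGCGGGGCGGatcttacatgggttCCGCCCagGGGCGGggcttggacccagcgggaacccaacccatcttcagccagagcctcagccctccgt
Rab3c, minus strand, chr13:110280157-110280456: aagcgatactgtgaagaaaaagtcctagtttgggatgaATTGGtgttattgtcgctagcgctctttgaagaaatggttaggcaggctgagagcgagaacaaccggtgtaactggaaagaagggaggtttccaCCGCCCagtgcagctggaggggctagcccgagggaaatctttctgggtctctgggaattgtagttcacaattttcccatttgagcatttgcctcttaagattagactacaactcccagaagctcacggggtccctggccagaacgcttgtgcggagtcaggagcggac
Rab35, plus strand, chr5:115631737-115632036: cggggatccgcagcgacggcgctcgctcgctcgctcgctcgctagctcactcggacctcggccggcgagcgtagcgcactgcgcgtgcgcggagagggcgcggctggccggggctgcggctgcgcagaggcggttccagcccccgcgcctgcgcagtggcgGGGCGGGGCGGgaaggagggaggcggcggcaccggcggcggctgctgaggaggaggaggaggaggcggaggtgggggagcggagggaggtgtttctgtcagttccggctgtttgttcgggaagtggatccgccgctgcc
The Rab35 window held 43 CpG dinucleotides at 75.3% GC and the Rab3d window 26 at 71.0% GC. Of the 4 windows printed, those of the falling genes were poorer in both, with 8 CpG at 51.7% GC for Rab3b and 11 CpG at 50.7% GC for Rab3c. The windows of the other called members were not compared, so nothing follows for falling members in general. A GC box was present in all 4 windows (3 in Rab3d, 4 in Rab3b, 1 in Rab3c and 2 in Rab35), so its presence did not separate them. These are matches of letters only, and no binding or methylation was measured.

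The RABs of the recycling endosome return membrane and receptors to the cell surface. Of these 8 members, limma called 2 higher and none lower. That is 25% higher, beside 14.9% of all genes, and 8.78% of all genes were called lower. At an unadjusted p below 0.05 in limma, 3 were higher and 2 lower, and the group median was -0.03. The share of all genes at an unadjusted p below 0.05 was not taken, here or below. Rab35, of fast endocytic recycling, was at 21.8 and 24.1 CPM on chow and at 58.1, 51.5 and 62.2 CPM on high-fat diet. The chow mean was 23.0 ± 1.65 (SD, n = 2) and the high-fat mean 57.3 ± 5.39 (SD, n = 3), which is a rise of 1.28 ± 0.10 on the log2 scale (adjusted p = 0.000418), or 2.49-fold. The diets lay far apart, with no high-fat library near the chow range. The difference lay between 0.90 and 1.35 over all 17 alternatives.

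Rab11b, of the slower perinuclear recycling route, was at 52.4 and 58.9 CPM on chow and at 72.1, 75.7 and 76.3 CPM on high-fat diet. It rose by 0.42 ± 0.09 (adjusted p = 0.0159), or 1.34-fold. Without chow replicate 1, high-fat replicate 2 or high-fat replicate 3 its adjusted p was 0.0507, 0.0638 or 0.0618. Its close relative Rab11a was at 61.4 and 55.9 CPM on chow and at 50.6, 53.4 and 52.1 CPM on high-fat diet, below both chow values but not past the threshold (-0.17 ± 0.08, adjusted p = 0.173). Rab4b, of rapid recycling from early endosomes, was at 13.1 and 15.2 CPM on chow and at 19.2, 17.5 and 17.9 CPM on high-fat diet, just outside the threshold (0.35 ± 0.11, adjusted p = 0.0533). Rab15, a recycling RAB enriched in neurons, was at 2.02 and 3.24 CPM on chow and at 1.56, 1.15 and 1.19 CPM on high-fat diet (-0.64 ± 0.20, adjusted p = 0.0548). Rab14, which links Golgi and endosomes, was at 104 and 110 CPM on chow and at 83.0, 86.7 and 95.1 CPM on high-fat diet (-0.28 ± 0.09, adjusted p = 0.0661). Rab15 and Rab14 were below both chow libraries in all 3 high-fat libraries, and with median-ratio scaling both were called lower (adjusted p = 0.0442 and 0.0249). Rab4a and the epithelial member Rab25 differed by 0.05 and -0.11 and were not called (adjusted p = 0.805 and 0.413).

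Of the 4 RABs that carry cargo from the Golgi to the plasma membrane, 1 was called (25%, beside 23.7% of all genes). Rab8a, which also acts in growth of the primary cilium, was at 29.6 and 30.9 CPM on chow and at 41.8, 43.8 and 41.1 CPM on high-fat diet. It rose by 0.47 ± 0.08 (adjusted p = 0.00798), or 1.40-fold, and the call held with any 1 library left out. Rab10, known for moving glucose transporter vesicles in fat cells, was at 78.0 and 85.1 CPM on chow and at 75.8, 73.6 and 74.2 CPM on high-fat diet (-0.13 ± 0.08, adjusted p = 0.276). Rab8b was at 14.8 CPM in both chow libraries and at 16.5, 14.1 and 17.9 CPM on high-fat diet, which overlaps (0.11 ± 0.12, adjusted p = 0.523). Rab13, of epithelial junctions, was at 3.56 and 2.70 CPM on chow and at 3.97, 2.74 and 2.80 CPM on high-fat diet (0.01 ± 0.19, adjusted p = 0.979).

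The ER and Golgi group had 14 tested members, of which limma called none higher and 2 lower. Lower calls were thus 14.3%, beside 8.78% of all genes, and 14.9% of all genes were called higher. At an unadjusted p below 0.05 in limma, 2 were higher and 5 lower, and the group median was -0.09. Rab18, of the ER and lipid droplets, was at 68.1 and 59.4 CPM on chow and at 47.0, 49.8 and 50.1 CPM on high-fat diet. It fell by 0.37 ± 0.09 (adjusted p = 0.0269), or 1.30-fold. Rab2a was at 147 and 131 CPM on chow and at 112, 115 and 113 CPM on high-fat diet, and fell by 0.29 ± 0.09 with an adjusted p of 0.04995, next to the threshold. Each of these calls was kept without chow replicate 3 and lost without any other library, at adjusted p from 0.0747 to 0.0917 for Rab18 and from 0.13 to 0.143 for Rab2a. Rab2a shares 10.7% of its 31-base words with the gene model Gm5865, which was at 23.7 and 24.5 CPM on chow and at 39.7, 34.6 and 38.1 CPM on high-fat diet. Summed with it, Rab2a was at 171 and 156 CPM on chow and at 151, 149 and 151 CPM on high-fat diet, still without overlap, and no fit was made on the sum.

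The remaining Golgi members did not pass. Rab6b, the form of RAB6 enriched in neurons, was at 34.5 and 32.1 CPM on chow and at 40.0, 37.3 and 44.7 CPM on high-fat diet (0.28 ± 0.10, adjusted p = 0.0856). Rab6a, of transport from Golgi to ER, was at 59.3 and 76.3 CPM on chow and at 57.8, 51.7 and 55.7 CPM on high-fat diet (-0.28 ± 0.12, adjusted p = 0.126). Rab1b, the second ER-to-Golgi RAB1, was at 51.0 and 54.4 CPM on chow and at 59.2, 64.9 and 60.4 CPM on high-fat diet (0.22 ± 0.08, adjusted p = 0.0969). For all of these the diets did not overlap, Rab6b and Rab1b lying above and Rab6a below on high-fat diet. Rab1a was at 169 and 159 CPM on chow and at 158, 165 and 176 CPM on high-fat diet, with overlap (0.02 ± 0.09, adjusted p = 0.906). Rab2b was at 6.80 and 6.68 CPM on chow and at 5.43, 5.29 and 4.76 CPM on high-fat diet (-0.33 ± 0.13, adjusted p = 0.102). The other members tested, Rab19, Rab30, Rab33b, Rab36, Rab39, Rab39b and Rab43, lay between -0.38 and 0.16. As a share of summed RAB CPM, the ER and Golgi group was at 29.7% and 28.3% on chow and at 27.0%, 27.4% and 26.9% on high-fat diet, and the recycling group at 12.9% and 13.5% against 14.3%, 14.4% and 14.6%. Both shares separated the diets, while that of the secretion group overlapped, at 21.6% and 22.1% on chow and 22.4%, 21.6% and 22.1% on high-fat diet.

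In the early endosome group, 1 of 8 members was higher and 1 was lower (12.5% each, beside 14.9% and 8.78% of all genes). Rab31, a RAB5 relative of transport between Golgi and endosomes, was at 11.0 and 13.2 CPM on chow and at 17.1, 16.3 and 22.3 CPM on high-fat diet. It rose by 0.57 ± 0.15 (adjusted p = 0.0383), or 1.53-fold, with high-fat replicate 3 above the others. Rab17, a RAB of polarised epithelial cells, was at 1.46 and 0.891 CPM on chow and at 0.384, 0.377 and 0.304 CPM on high-fat diet. It fell by 0.67 ± 0.17 on the log2(CPM + 1) scale (adjusted p = 0.0326), which understates the 3.31-fold difference in mean CPM of so low a gene. Rab17 passed the filter, at a mean of 0.684 CPM, only through chow (1.18 CPM, beside 0.355 CPM on high-fat diet). Its call therefore depends on the filter. The call of each was kept without chow replicate 3 and lost without any other library, at adjusted p from 0.0622 to 0.165 for Rab31 and from 0.0708 to 0.153 for Rab17. Ductal markers, which like Rab17 are epithelial, summed to 258 and 184 CPM on chow and to 181, 149 and 169 CPM on high-fat diet. Of these 6 markers, 1 was called lower (Spp1) and 1 higher (Sox9). Sox9 was at 8.17 and 3.59 CPM on chow and at 20.2, 10.5 and 14.1 CPM on high-fat diet. The part of ductal cells in the Rab17 difference was not tested.

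The RAB5 trio, which drives fusion of early endosomes, was not called. Rab5a was at 75.6 and 69.0 CPM on chow and at 68.7, 70.3 and 71.1 CPM on high-fat diet (-0.04 ± 0.08, adjusted p = 0.717). Rab5b was at 82.7 and 86.9 CPM on chow and at 93.3, 90.4 and 91.1 CPM on high-fat diet (0.11 ± 0.08, adjusted p = 0.329). Rab5c was at 44.8 and 48.5 CPM on chow and at 49.8, 50.8 and 54.1 CPM on high-fat diet (0.14 ± 0.08, adjusted p = 0.246). Rab5b and Rab5c lay above both chow libraries in all 3 high-fat libraries, and Rab5a overlapped. Rab20, Rab21 and Rab22a lay between -0.10 and -0.04.

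Limma called none of the 8 tested members of the late endosome, lysosome and autophagy group in either direction, beside 23.7% of all genes. None was at an unadjusted p below 0.05 either (0 of 8). Rab7 was at 175 and 183 CPM on chow and at 175, 179 and 193 CPM on high-fat diet (0.02 ± 0.09, adjusted p = 0.873). Rab9b, of return from late endosomes to the Golgi, was at 6.59 and 5.96 CPM on chow and at 7.59, 8.30 and 7.29 CPM on high-fat diet (0.26 ± 0.12, adjusted p = 0.168). Rab12, which acts in lysosomal degradation of receptors, was at 40.8 and 34.2 CPM on chow and at 32.4, 34.1 and 33.5 CPM on high-fat diet (-0.16 ± 0.10, adjusted p = 0.271). Rab29, known as a partner of the kinase LRRK2, was at 1.95 and 1.30 CPM on chow and at 1.52, 0.797 and 0.852 CPM on high-fat diet (-0.36 ± 0.21, adjusted p = 0.257). Rab7b was at 1.49 and 1.30 CPM on chow and at 0.675, 1.01 and 1.40 CPM on high-fat diet (-0.25 ± 0.19, adjusted p = 0.374). Rab38, of melanosomes and other lysosome-related organelles, was below the filter at 0.160 and 0.0816 CPM on chow and 0.759, 0.469 and 0.468 CPM on high-fat diet, and with no filter its adjusted p was 0.233. The chow values of Rab38 are at or under the level of 3 reads, so no fold is given.

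Of the 5 tested members of the cilia and other group, 1 was called (20%, beside 23.7% of all genes). Rab23, a negative regulator of hedgehog signalling, was at 13.3 and 15.5 CPM on chow and at 18.4, 19.3 and 19.5 CPM on high-fat diet. It rose by 0.38 ± 0.10 (adjusted p = 0.0357), or 1.32-fold, and the call was kept without chow replicate 3 and lost without any other library (adjusted p from 0.0803 to 0.135). Rab28, of cilia and photoreceptors, was at 31.3 and 30.1 CPM on chow and at 26.1, 23.9 and 25.7 CPM on high-fat diet, just outside the threshold (-0.27 ± 0.08, adjusted p = 0.0547). Rab40c, a substrate receptor of a ubiquitin ligase, was at 8.92 and 9.41 CPM on chow and at 11.1, 13.1 and 10.6 CPM on high-fat diet (0.31 ± 0.12, adjusted p = 0.119). Its relative Rab40b was at 2.55 and 3.37 CPM on chow and at 5.24, 3.39 and 3.32 CPM on high-fat diet (0.32 ± 0.21, adjusted p = 0.307). Rab33a, Rab42 and Rab44 did not pass the filter, with ranges of 0.0406 to 0.160, 0.0854 to 0.169 and 0.0534 to 0.171 CPM over the 5 libraries.

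Ratios of CPM between members that share a number carry no scaling factor. They were written with the later letter over the earlier, for 20 pairs. Rab33b and Rab33a also share a number but were not paired, and Rab33a did not pass the filter. Of the 20 pairs 15 did not overlap between the diets, beside 54.2% of all pairs of 16798 genes. The ratio was higher on high-fat diet in 10 and lower in 5, a split that depends on which gene stands on top. Several pairs share a gene, so they are not independent, and no test was made. Rab3d over Rab3c was 7.19 and 6.53 on chow and 21.2, 17.6 and 16.4 on high-fat diet. The ratio of Rab3d to Rab3b was 3.05 and 2.85 on chow and 5.61, 5.87 and 4.78 on high-fat diet. Both ratios were larger in every high-fat library. Rab11b over Rab11a was 0.854 and 1.05 on chow and 1.43, 1.42 and 1.46 on high-fat diet, with the 3 high-fat values close together. The Rab6b to Rab6a ratio was 0.583 and 0.421 on chow and 0.692, 0.722 and 0.802 on high-fat diet. Rab8b over Rab8a was lower on high-fat diet, at 0.501 and 0.481 on chow and 0.394, 0.322 and 0.435 on high-fat diet. The 5 pairs that overlapped were Rab2b/Rab2a, Rab5c/Rab5b, Rab7b/Rab7, Rab39b/Rab39 and Rab40c/Rab40b.

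**Figure D4:**
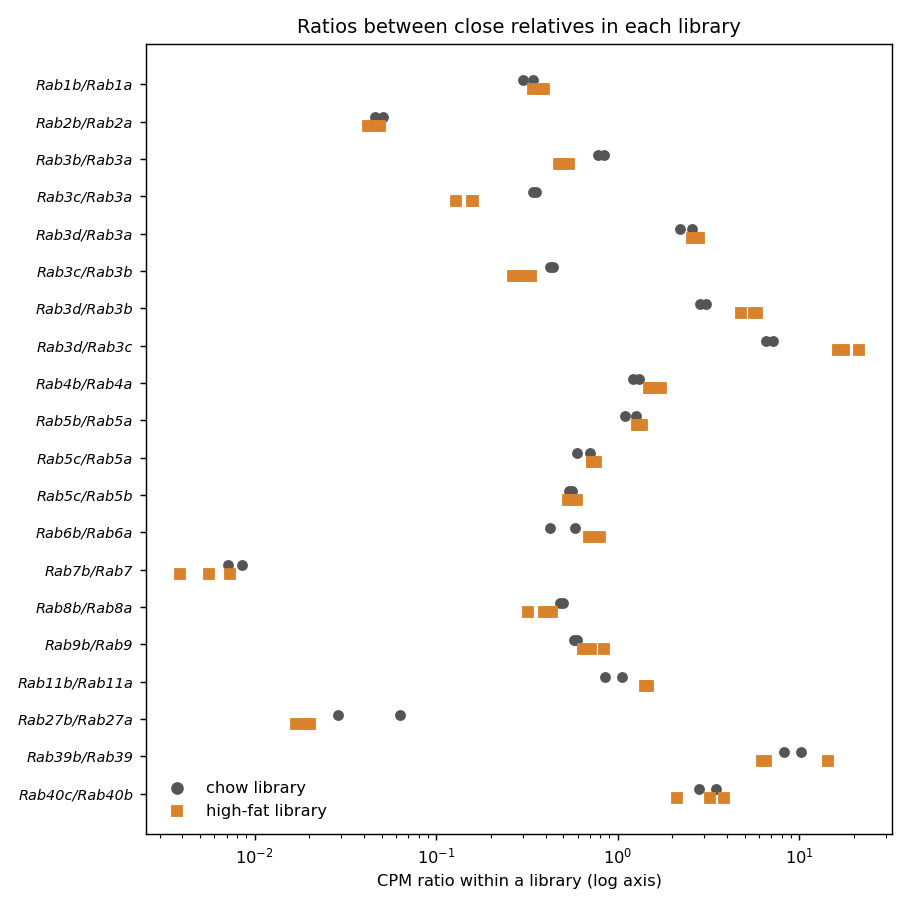
CPM ratio within each library (log axis) for 20 pairs of RAB genes that share a number, Rab33b and Rab33a left out. Circles mark chow and squares high-fat libraries. Rab3d/Rab3b, Rab3d/Rab3c and Rab11b/Rab11a lie to the right on high-fat diet, and Rab3b/Rab3a, Rab3c/Rab3a and Rab3c/Rab3b to the left.

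The base composition of called members overlapped between the directions. The median transcript GC content was 49.4% for the 7 higher members (46.6% to 55.0%), 44.4% for the 7 lower members (37.9% to 55.6%) and 48.9% for the 41 not called (38.1% to 59.5%). Median transcript lengths were 3886, 3327 and 2506 bases. With length and GC trends removed, the calls were 6 higher and 6 lower (11.1% and 9.69% of all genes), and whether base composition bears on single members was not tested further. Which strand was counted is not given in the sources, and 21 members overlap an annotated gene on the opposite strand. Among called members, Rab3a overlaps Mpv17l2 (2.24 to 4.66 CPM) and Rab37 overlaps Cd300lf (0.386 to 1.02 CPM), both far below the member. So was Gm17251 (3.33 to 5.30 CPM), which overlaps Rab11b. Rab3b overlaps Gm12736 and 8030443G20Rik, at no more than 0.130 and 0.0545 CPM. The opposite-strand partners of Rab18 and Rab27b are not among the deposited names, so their levels could not be judged. Rab11b shares 15.6% of its 31-base words with Rab11b-ps2, which was at 12.6 and 12.2 CPM on chow and 12.8, 13.6 and 13.3 CPM on high-fat diet. Summed with that copy, Rab11b was at 65.0 and 71.2 CPM on chow and 84.9, 89.3 and 89.6 CPM on high-fat diet, still without overlap. Rab43, Rab4b, Rab2b and Rab24 share over 50% of their words with another gene model, and their values are uncertain for that reason.

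The proteins that act on RABs were also listed, with earlier results of these data known, so the shares below are no test of the lists. The lists held 140 genes, of which 137 passed the filter. Of these, 36 were higher on high-fat diet and 5 were lower (26.3% and 3.65%, beside 14.9% and 8.78% of all genes), with a median log2 difference of 0.15 beside 0.05 for all genes. GAPs held the largest share of higher calls, at 15 of 38 (39.5%, beside 14.9% of all genes) with none lower (18 higher and 1 lower at an unadjusted p below 0.05 in limma) and a median of 0.23. That direction did not hold with library sizes counted without acinar and insulin genes. There 2 GAPs were higher and 6 lower at a median of -0.12, or 0.15 above the median of all genes. Of all genes, 4.79% were higher and 28% lower under that scaling. With a high-fat library left out, higher calls were 7.01% to 8.67% of all genes. Higher GAP calls numbered 4 without chow replicate 1 or high-fat replicate 2, and 5 without high-fat replicate 1 or 3. They numbered 4 with the acinar covariate and 6 (with 1 lower) once length and GC trends were removed. Of all genes, 7.95% were higher without chow replicate 1 and 7.2% with the acinar covariate. With length and GC trends removed, 11.1% of all genes were higher and 9.69% lower. Leaving out single libraries moved the number of higher calls among all 137 from 11 (without high-fat replicate 2) to 48 (without chow replicate 3). It was 14 without chow replicate 1, 15 without high-fat replicate 1 and 13 without high-fat replicate 3. Without chow replicate 3, 17.5% of all genes were higher. Of the 41 called genes, 12 kept their call whichever library was left out. The share of all called genes in the table that did so was not taken.

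In the GAP list, Tbck was at 22.2 and 29.2 CPM on chow and at 44.9, 48.0 and 49.95 CPM on high-fat diet (0.87 ± 0.12, adjusted p = 0.00447). Whether the proteins of this list act on RABs in islets was not measured. Tbc1d24, a TBC protein of synaptic vesicles, was at 41.5 and 48.1 CPM on chow and at 109, 74.5 and 80.0 CPM on high-fat diet (0.94 ± 0.17, adjusted p = 0.00997, and 0.0511 without chow replicate 1). Tbc1d22b was at 32.1 and 38.7 CPM on chow and at 53.6, 51.3 and 51.6 CPM on high-fat diet (0.55 ± 0.10, adjusted p = 0.0100). These 3 rose without overlap between the diets. The AKT substrates Tbc1d1 and Tbc1d4, which restrain RAB10-type proteins, were not called. Tbc1d1 was at 51.1 and 67.2 CPM on chow and at 71.9, 76.2 and 75.7 CPM on high-fat diet (0.34 ± 0.12, adjusted p = 0.0818). Tbc1d4 was at 14.6 CPM in both chow libraries and at 16.0, 17.5 and 17.1 CPM on high-fat diet (0.20 ± 0.09, adjusted p = 0.166).

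Of the 39 GEFs, 6 were higher and none lower in limma (15.4% higher, beside 14.9% of all genes). Lower calls were 8.78% of all genes. The GEF median was 0.15, and 12 GEFs were higher and 4 lower at an unadjusted p below 0.05 in limma. With library sizes counted without acinar and insulin genes, 1 GEF was higher and 7 were lower, beside 4.79% and 28% of all genes. Madd, the exchange factor of RAB3 and RAB27, was at 104 and 151 CPM on chow and at 261, 258 and 254 CPM on high-fat diet. It rose by 1.03 ± 0.16 (adjusted p = 0.00553) and kept the call whichever library was left out. Mon1b, part of the RAB7 exchange factor, was at 19.2 and 22.5 CPM on chow and at 29.3, 30.2 and 29.8 CPM on high-fat diet (0.49 ± 0.09, adjusted p = 0.0129, and 0.0538 without high-fat replicate 2). Dennd1b, of the DENN family that acts on RAB35, was at 22.5 and 24.0 CPM on chow and at 28.9, 31.7 and 33.3 CPM on high-fat diet (0.41 ± 0.09, adjusted p = 0.0226). Its adjusted p was 0.0815, 0.0787 and 0.0782 without chow replicate 1, high-fat replicate 2 and high-fat replicate 3.

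Of 7 genes of RAB prenylation and recycling, 1 was higher (14.3%, beside 14.9% of all genes) and none lower in limma (2 and 1 at an unadjusted p below 0.05), against none higher and 2 lower with library sizes counted without acinar and insulin genes. Rabac1, a receptor for prenylated RABs at the Golgi, was at 59.3 and 56.4 CPM on chow and at 76.9, 79.0 and 80.1 CPM on high-fat diet (0.44 ± 0.08, adjusted p = 0.00908). Under that scaling Rabac1 stood at 0.05 (adjusted p = 0.779). Gdi2, which extracts GDP-bound RABs from membranes, was at 181 and 156 CPM on chow and at 143, 144 and 144 CPM on high-fat diet (-0.23 ± 0.09, adjusted p = 0.125), below both chow libraries but not past the threshold.

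Among 14 tested effectors of secretion, 3 were higher and 1 was lower (21.4% and 7.14%, beside 14.9% and 8.78% of all genes), against none higher and 1 lower with library sizes counted without acinar and insulin genes. Exph5, a RAB27 effector, was at 43.3 and 50.9 CPM on chow and at 82.9, 85.5 and 81.6 CPM on high-fat diet (0.81 ± 0.09, adjusted p = 0.00196). Rims2, the RAB3 effector of the active zone that also acts in insulin release, was at 30.6 and 33.1 CPM on chow and at 50.5, 50.4 and 50.8 CPM on high-fat diet (0.65 ± 0.08, adjusted p = 0.00229). Both calls held with any 1 library left out, and both were lost without acinar and insulin genes in the library size (adjusted p = 0.0511 for Exph5 and 0.141 for Rims2). Sytl5, of the synaptotagmin-like RAB27 effectors, was at 17.8 and 21.3 CPM on chow and at 24.7, 26.5 and 28.8 CPM on high-fat diet (0.43 ± 0.11, adjusted p = 0.0343), a call kept only without chow replicate 3 among single libraries left out and otherwise at 0.0601 to 0.136. Mlph, which links RAB27A to myosin, was at 21.6 and 15.3 CPM on chow and at 10.8, 8.13 and 12.6 CPM on high-fat diet (-0.76 ± 0.21, adjusted p = 0.0389). Without chow replicate 1, high-fat replicate 1 and high-fat replicate 2 the adjusted p of Mlph was 0.19, 0.086 and 0.094. The granule effectors Rph3al and Sytl4 were not called. Rph3al was at 47.4 and 62.2 CPM on chow and at 66.0, 72.9 and 67.9 CPM on high-fat diet (0.34 ± 0.12, adjusted p = 0.0899). Sytl4, which encodes granuphilin, was at 136 and 152 CPM on chow and at 147, 121 and 154 CPM on high-fat diet (-0.04 ± 0.13, adjusted p = 0.844), overlapping as its partner Rab27a did.

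Of 37 effectors of endosomes, lysosomes and Golgi, 11 were higher and 4 lower (29.7% and 10.8%, beside 14.9% and 8.78% of all genes), against none higher and 10 lower with library sizes counted without acinar and insulin genes. The higher calls numbered 5 without chow replicate 1, 4 without high-fat replicate 1, and 3 without high-fat replicate 2 or 3. Without chow replicate 1, 7.95% of all genes were higher. With a high-fat library left out, higher calls were 7.01% to 8.67% of all genes. Rab11fip1, an effector of RAB11, was at 13.7 and 16.7 CPM on chow and at 25.3, 25.2 and 24.7 CPM on high-fat diet. It rose by 0.69 ± 0.10 (adjusted p = 0.00554). Rilpl1, which binds RAB8 and RAB10 at the centrosome, was at 11.4 and 13.5 CPM on chow and at 19.1, 18.5 and 19.2 CPM on high-fat diet (0.57 ± 0.10, adjusted p = 0.0109). Bicd1, a dynein adaptor of RAB6, was at 39.0 and 37.9 CPM on chow and at 51.3, 50.2 and 53.0 CPM on high-fat diet (0.41 ± 0.08, adjusted p = 0.0111). The calls of these 3 held with any 1 library left out. The RAB5 effectors Eea1 and Appl2 fell. Eea1, the tether of early endosomes, was at 63.7 and 62.2 CPM on chow and at 42.4, 43.9 and 45.2 CPM on high-fat diet (-0.51 ± 0.08, adjusted p = 0.00529), and was the only one of the 41 called regulators and effectors to keep its call under every alternative run. Appl2 was at 74.6 and 64.1 CPM on chow and at 50.8, 43.9 and 43.6 CPM on high-fat diet (-0.58 ± 0.11, adjusted p = 0.0115). Optn, a RAB8 effector and autophagy receptor, was at 13.2 and 12.9 CPM on chow and at 8.66, 10.5 and 8.98 CPM on high-fat diet (-0.44 ± 0.12, adjusted p = 0.0375), and was lost without each single library, at 0.0525 to 0.128. The kinases Lrrk1 and Lrrk2, which phosphorylate RABs, were at -0.42 ± 0.15 and -0.39 ± 0.18 and were not called (adjusted p = 0.089 and 0.166).

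**Figure D5:**
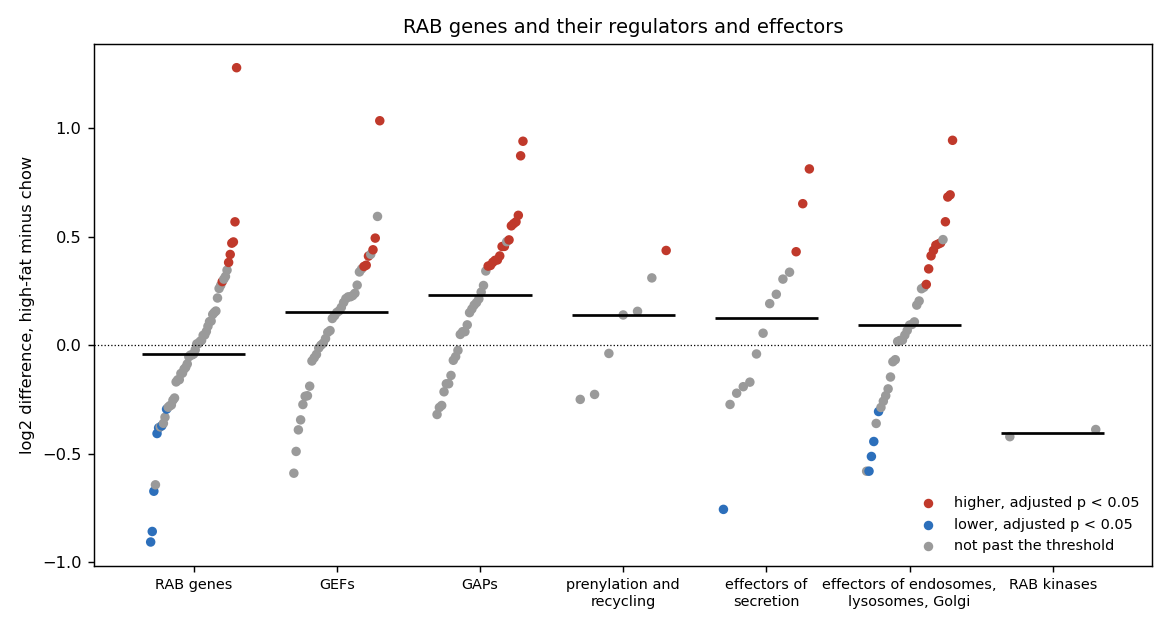
Log2 difference (high-fat minus chow) of every tested RAB gene and of its regulators and effectors by list, each point a gene and each line the list's median. The GAP median lies at 0.23 and the RAB median at -0.04, and no GEF or GAP point is coloured as lower.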

How the data were processed

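Bulk RNA-seq of isolated islets was deposited as 1 table of 6 columns. Per the submitters' processing notes the authors used Partek. Its version, aligner, build, annotation, library kit and strand were not given in the sources used here. Deposited values were read as CPM plus 1, from a lowest value of 1 and from column sums, and 1 was subtracted. Members, role groups and regulator lists were chosen with earlier results of these data known. The 16939 genes averaging 0.5 CPM or more across the 5 libraries were fitted by limma 3.58.1 (R 4.3.3, log2(CPM + 1), intensity trend). Benjamini-Hochberg adjustment was used with a threshold of 0.05. After these fits, the model was also run on data simulated from the means and spread of these genes. With 2 against 3 libraries an exact two-sided permutation test cannot go below 0.2, so none was used. Whole reads could not be recovered: 64.3% to 69.9% of values up to 20 reads were whole within 0.1, so no count test was run. Every called member is named; values per library are given for up to 4 members per role with the smallest p and for a chosen set of core members, and for up to 3 regulators per list and direction plus a chosen few, of which 1 is not reported here. GENCODE M21 gave transcript lengths and shared 31-base words, and RefSeq gave the promoter windows (GRCm38.p6). All 6 columns were mapped, and 17 alternatives were run.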

Additional observations from a re-analysis of the deposited data

How the results depend on the processing

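No paired analysis was possible because the labels carry no replicate numbers that the diets share. Over the 14 called members and the alternatives that could be fitted, 159 of 237 values kept the call. The same share over all called genes was not taken. The only change of sign among these members was Rab3a at -0.0915 with library sizes counted without acinar and insulin genes. Members called were 7 higher and 7 lower. Without acinar and insulin genes in the library size these were 1 and 24, with no filter 2 and 1 (1.15% and 0.772% of all genes), with the acinar score as covariate 3 and 2 (7.2% and 4.66%), with no trend in the variance prior 4 and 4 (11.8% and 7.61%), and with all 6 columns 13 and 14 (25.3% and 16.5%). With median-ratio or trimmed-mean scaling they were 6 and 10, and leaving out single libraries gave 3 to 8 higher and 1 to 6 lower. Leaving out single libraries gave 7.01% to 17.5% higher and 4.07% to 8.43% lower among all genes. Regulators and effectors were 36 higher and 5 lower. The same alternatives in turn gave 3 and 28, 4 and 1, 11 and 2, 22 and 3, and 51 and 17. Both scalings gave 30 and 11, removal of length and GC trends 23 and 11, and sample quality weights 32 and 2. Leaving out single libraries gave 11 to 48 higher and 2 to 8 lower. With sample quality weights, 12.2% of all genes were higher and 6.65% lower. Rab8a, Rab3c, Rab3d and Rab37 kept the call with the acinar covariate, as did Rab35. The 1 CPM filter gave no value for Rab17. Depth limits Rab33a, Rab42, Rab44 and the chow values of Rab38, all near the level of 3 reads or below it. With 2 chow libraries the spread on chow is known poorly, and the cause of these shifts was not tested.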

Other observations

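Rows with related names that the symbol rule leaves out were looked at after their values were seen. Rabl6, a RAB-like protein, was at 60.3 and 57.3 CPM on chow and at 64.3, 59.6 and 65.8 CPM on high-fat diet, with overlap (0.10 ± 0.08, adjusted p = 0.397). Rabl2 and Rabl3 differed by 0.15 and 0.03 and were not called (adjusted p = 0.429 and 0.878). The antisense RNA Rab10os was at 10.3 and 14.1 CPM on chow and at 8.73, 12.2 and 11.4 CPM on high-fat diet. Rab11fip4os2, antisense to a RAB11 effector gene, was at 0.0532 and 0 CPM on chow and at 0.591, 0.456 and 0.723 CPM on high-fat diet. Every high-fat library lay above both chow libraries, as for 32.8% of all genes tested. The chow values of Rab11fip4os2 were under the level of 3 reads. It did not pass the filter and was not tested. Rab9b-ps1, also below the filter, lay below both chow libraries in every high-fat library, as did 22.5% of all genes tested.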
